A study of Mus musculus with 12 samples.

Results

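The genes described here are 37 transcripts that mark macrophages or leukocytes in general, chosen by gene name with earlier results of these data known. They are the CSF1 axis and its lineage factor (3 genes), macrophage surface and scavenger receptors (6), pattern recognition receptors (2), Fc receptors and their signaling adaptors (5), the chains of complement C1q (3), lysosomal enzymes with apolipoprotein E (4), the integrin CD11b/CD18 (2), pan-leukocyte membrane proteins (6), and pan-leukocyte cytoskeleton, GTPase and oxidase genes (6). All 37 were found among the 34508 genes listed for tumors and the 40077 listed for cells.

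Macrophages are phagocytes that arise from monocytes or are seeded in tissues before birth. They depend on signals through the CSF1 receptor and on the transcription factor PU.1, and they take up dead cells, lipids and antibody-coated particles. In many solid tumors they are the most abundant leukocytes, and a bulk tumor carries their transcripts mixed with those of cancer cells and stroma.

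YJ1206 is a degrader of the transcriptional kinases CDK12 and CDK13, and it was tested in Myc-CaP, a mouse prostate cancer cell line. Male FVB mice with subcutaneous Myc-CaP tumors were dosed orally with YJ1206, 100 mg/kg on 3 occasions each week, or with vehicle (3 tumor libraries per group). In parallel, Myc-CaP cultures were given DMSO or 1 μM YJ1206 for 24 hours, again with 3 libraries each. No genetic change separated the groups, and the age of the mice and the length of dosing before the tumors were sampled are not given in the sources used here. The tumors served to read the effect of the drug on leukocyte transcripts, and the DMSO cultures to find members that the cancer cells express themselves. The labels name polyA RNA for cells and total RNA for tumors, whereas the described libraries were made after removal of ribosomal RNA, and DMSO and YJ1206 cell libraries carry names from separate number series, so that any batch and the treatment cannot be told apart there. The study states that its data come from independent biological replicates, but the labels do not say that each library is a separate animal or culture, so p-values measure the spread between these libraries. Because tumors were sequenced in bulk, fewer cells of a type and less RNA per cell cannot be told apart.

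Tumor libraries held 15391544 to 26928365 counts on genes and cell libraries 13936902 to 18519926. Levels within a material are given as CPM, counts scaled by library size and TMM factors, which sets libraries on a common scale on the assumption that most genes do not change. In tumors, a level of 0.113 to 0.194 CPM was equal to 3 counts. A member was called when edgeR's quasi-likelihood test gave a Benjamini-Hochberg adjusted p-value under 0.05 over all genes tested. Library 3 of each tumor group stood apart in 1 respect: among genes whose level differed clearly between libraries 1 and 2, library 3 lay between them for 98.1% of 3552 genes in vehicle tumors and for 97.2% of 1467 genes in YJ1206 tumors. The corresponding shares with library 1 or 2 as the middle one were 2.96% to 8.70%, and shares in the cell groups were 57.4% to 82.4%. Among the 37 members, library 3 lay between the other 2 in 30 (vehicle) and 28 (YJ1206). Should library 3 not be a separate sample, p-values and SDs over the 3 tumor libraries would understate the spread. The labels do not settle this. Tumor calls are therefore also given for libraries 1 and 2 alone.

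In tumors, 10 of the 37 members were higher with YJ1206 and none was lower. All 37 passed the filter on low counts. Across the 15558 genes tested, 11.9% were called higher and 14.9% lower. The share of members called higher (27.0%) stood above that background and the share called lower below it. Because the members were chosen with earlier results of these data known, shares set beside all genes are a description only. At an unadjusted p under 0.05, 17 members were higher and 1 was lower, and DESeq2 called 12 higher and 0 lower. Over the 15558 genes, DESeq2 called 1900 higher and 2459 lower. No share of all genes was taken at an unadjusted p, so such counts, here and below, have no background beside them. The 10 called higher by edgeR were Msr1, Trem2, Fcgr1, Fcer1g, C1qa, C1qb, C1qc, Lgmn, Apoe and Itgam. The log2 fold change was positive in 31 members and negative in 6, with a median of 0.38, against a median of 0.0091 over all genes. The levels did not overlap between groups in 16 members that were higher (43.2%, against 21.8% of all genes) and in 1 that was lower (2.70%, against 22.8%).

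How many members were called depended on which libraries entered the fit. With libraries 1 and 2 only, edgeR called no member, and over 15684 genes it called 0 higher and 1 lower; 6 members had an unadjusted p under 0.05. The fold changes moved little in that fit, with a median of 0.37 over the members and 31 positive values. The count of higher members was 4 without vehicle library 3, 4 without YJ1206 library 3 and 5 without YJ1206 library 2, and 11 or 12 when one of the other libraries was left out. The calls over all genes also moved, from 1854 of 15558 higher with all libraries. They were 760 of 15867, 766 of 15970 and 1153 of 15786 in the first 3 of these fits, and 1267 to 2648 genes in the others. Without vehicle library 2, 3 members (Cd163, Cd14 and Lyz2) were called lower, as were 3076 of 15810 genes. Of the 10 called members, 4 (C1qb, Lgmn, Apoe and Itgam) were called in each of the 6 fits that left out 1 library. Each of these fits still held library 3 of at least 1 group.

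**Figure D1:**
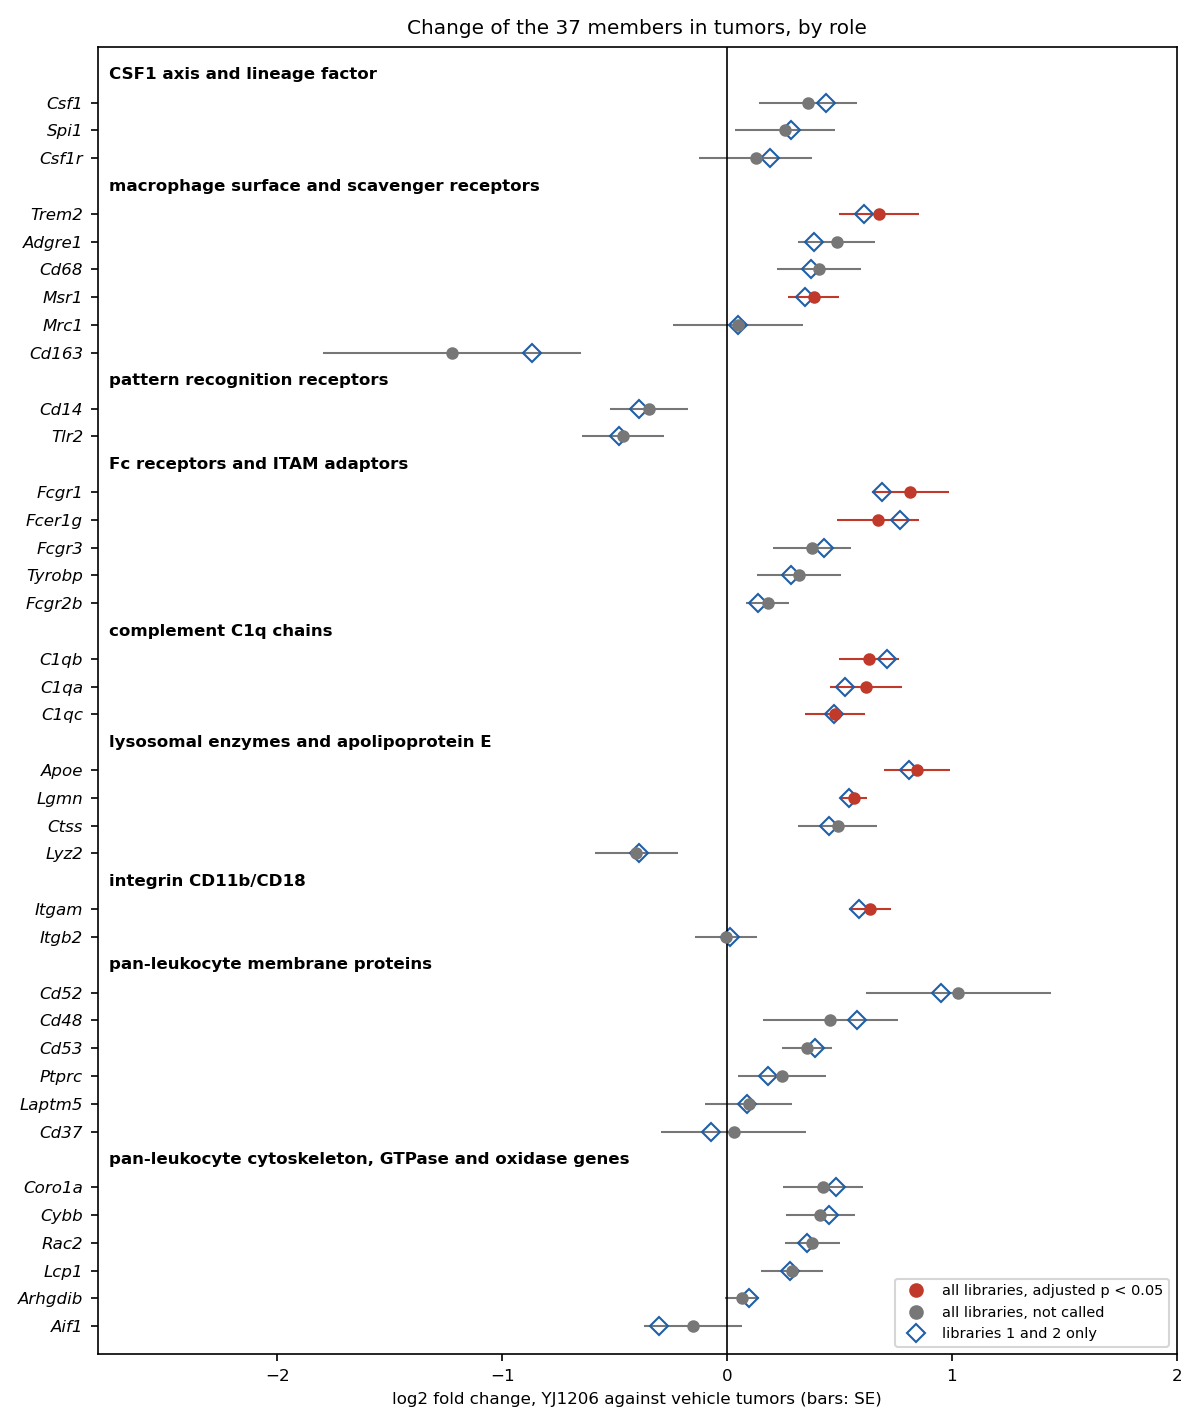
Log2 fold change between YJ1206 and vehicle tumors for the 37 members, grouped by role, with horizontal bars for the standard error of the edgeR fit over all 6 libraries. Filled red points are the 10 called members, grey points the 27 that were not called, and open diamonds the values from libraries 1 and 2 only. Most points lie right of 0, and the C1q chains have the highest median of the groups (0.62).

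The CSF1 axis and lineage factor included no member called by edgeR, also not at an unadjusted p under 0.05, and none called by DESeq2. Csf1, which encodes the growth factor of macrophages, was at 37.7, 20.4 and 35.7 CPM in vehicle libraries 1, 2 and 3 and at 42.5, 36.2 and 41.4 CPM in YJ1206 libraries 1, 2 and 3 (log2 fold change 0.36, SE 0.22, adjusted p = 0.262, edgeR). Vehicle library 2 was the lowest, and the lowest YJ1206 value lay within the vehicle range. The receptor gene Csf1r was at 40.9, 24.0 and 35.7 CPM with vehicle and 26.5, 47.6 and 35.4 CPM with YJ1206 (log2 fold change 0.13, SE 0.25, adjusted p = 0.751, edgeR). Spi1, which encodes PU.1, was at 4.60, 2.70 and 4.14 CPM and 3.99, 4.88 and 4.69 CPM, respectively (log2 fold change 0.26, SE 0.22, adjusted p = 0.438, edgeR). In both genes the groups overlapped, and in all 3 the lowest vehicle value was that of library 2. The direction for Csf1r was negative without vehicle library 2 (-0.068) or without YJ1206 library 2 (-0.12).

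Of the 6 macrophage surface and scavenger receptors, Msr1 and Trem2 were called higher, and Cd163 had the most negative fold change of all members without being called. Trem2, which encodes a lipid-sensing receptor of macrophages and microglia (ENSMUSG00000023992.14, chr17:48346401-48354147, plus strand, GRCm38), was at 3.79, 3.86 and 3.43 CPM in vehicle libraries and 4.70, 6.98 and 6.03 CPM in YJ1206 libraries. The groups did not overlap (log2 fold change 0.68, SE 0.18, adjusted p = 0.0298, edgeR). Msr1, encoding class A scavenger receptor, was at 18.7, 14.6 and 16.6 CPM with vehicle and at 21.8, 20.6 and 22.7 CPM with YJ1206, again without overlap (log2 fold change 0.38, SE 0.11, adjusted p = 0.0415, edgeR). Both calls were lost in several fits that left out 1 library. Trem2 was not called without vehicle library 1 or 3 or YJ1206 library 2 or 3 (edgeR adjusted p = 0.0569 to 0.110), and Msr1 was called only in the fit without vehicle library 1, with edgeR adjusted p = 0.0564 to 0.151 in the other 5. With libraries 1 and 2 only, the log2 fold changes were 0.61 and 0.35 (edgeR adjusted p = 0.298 and 0.360).

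The general macrophage markers were not called. Adgre1, which encodes F4/80, was at 13.0, 9.79 and 11.1 CPM with vehicle and 12.5, 17.4 and 17.7 CPM with YJ1206 (log2 fold change 0.49, SE 0.17, adjusted p = 0.074, edgeR). Cd68, encoding a lysosomal glycoprotein of phagocytes, was at 21.9, 13.2 and 16.8 CPM and 20.1, 25.4 and 23.3 CPM (log2 fold change 0.41, SE 0.19, adjusted p = 0.15, edgeR). In both genes only YJ1206 library 1 lay within the vehicle range. Adgre1 was called without YJ1206 library 1 (0.63, edgeR adjusted p = 0.032), and Cd68 without vehicle library 1 (0.62, edgeR adjusted p = 0.0274).

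The mannose receptor gene Mrc1 and the hemoglobin scavenger receptor gene Cd163 mark tissue-resident and alternatively activated macrophages. Mrc1 was at 86.2, 34.3 and 59.5 CPM in vehicle libraries and 57.8, 66.9 and 61.0 CPM in YJ1206 libraries, all 3 within the vehicle range (log2 fold change 0.048, SE 0.29, adjusted p = 0.92, edgeR). The fold change of Mrc1 turned to -0.24 without vehicle library 2 and to -0.015 without YJ1206 library 2. Cd163 was at 10.005, 1.76 and 9.31 CPM with vehicle and 3.00, 3.40 and 2.47 CPM with YJ1206 (log2 fold change -1.22, SE 0.57, adjusted p = 0.157, edgeR). Vehicle library 2 was below every YJ1206 library, whereas vehicle libraries 1 and 3 were above them, and without vehicle library 2 the log2 fold change was -1.70 (edgeR adjusted p = 0.000396).

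Other tissue in the vehicle tumors varied in the same library order as both genes. On the TPM scale, the authors' value scaled for gene length, the 6 skeletal muscle genes summed to 722, 31.5 and 437 in vehicle libraries 1, 2 and 3, and to 15.2 to 17.4 in YJ1206 libraries. All 5 muscle genes that could be tested were called lower, as were 14.9% of all genes, with a median log2 fold change of -4.22 over the muscle genes (edgeR). Neither of the defining genes Acta1 and Ckm was at 0 in any library. Between 0 (without YJ1206 library 3) and 6 (without vehicle library 2) muscle genes were called lower when 1 library was left out, and none with libraries 1 and 2 only. The 8 fibroblast genes summed to 736, 227 and 534 TPM in vehicle libraries and 166 to 364 TPM in YJ1206 libraries, and edgeR called none of them (4 were lower at an unadjusted p under 0.05, and DESeq2 called 1 lower). The part of muscle or stroma in the values of Mrc1 and Cd163 was not tested.

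**Figure D2:**
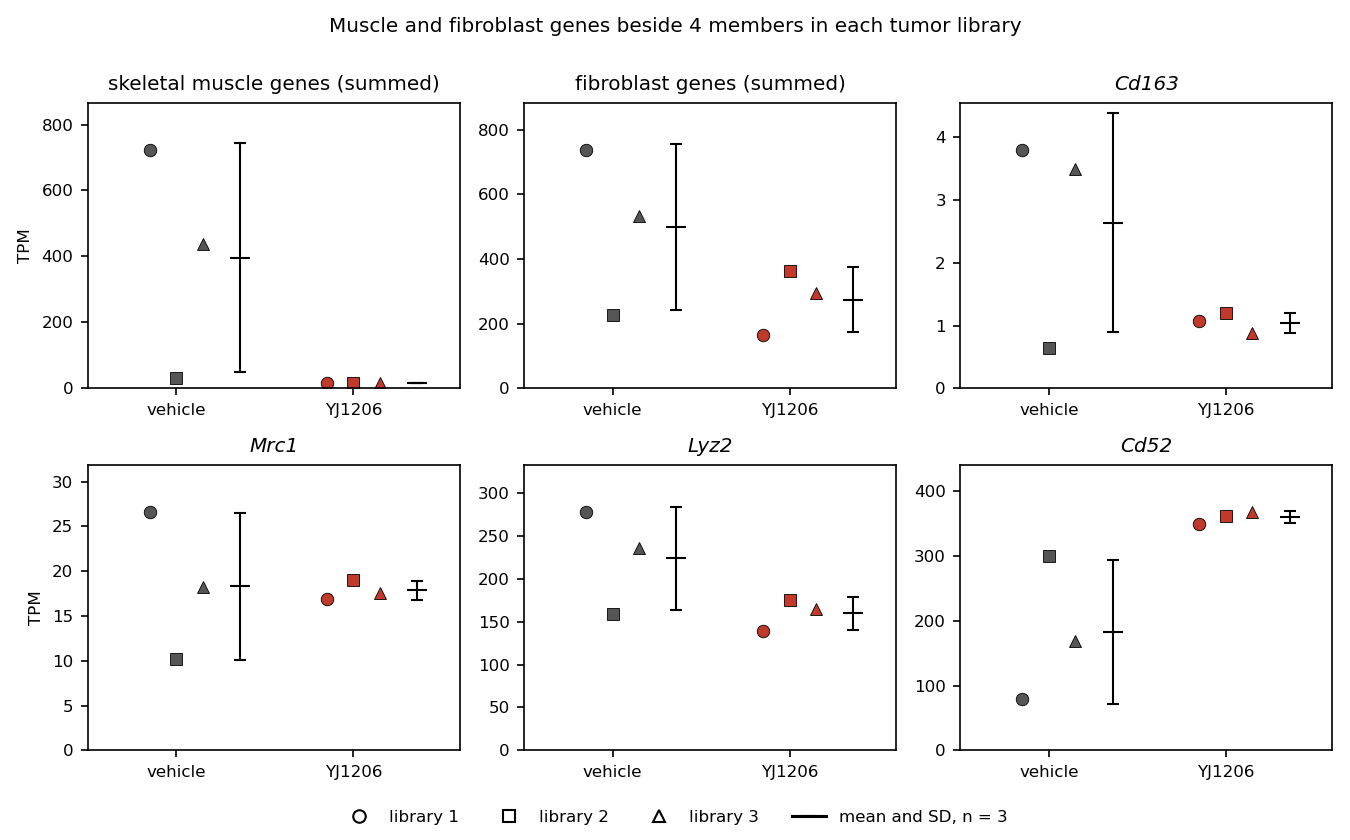
Summed TPM of 6 skeletal muscle genes and of 8 fibroblast genes, and TPM of Cd163, Mrc1, Lyz2 and Cd52, in the 3 vehicle and 3 YJ1206 tumor libraries, with mean and SD (n = 3) beside the points. Among vehicle libraries, muscle and fibroblast genes, Cd163, Mrc1 and Lyz2 were highest in library 1 and lowest in library 2, and Cd52 had the opposite order.

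Both pattern recognition receptors had negative fold changes, and neither was called by edgeR or DESeq2 (Tlr2 had an unadjusted p under 0.05). Cd14, encoding the coreceptor for bacterial lipopolysaccharide, was at 21.3, 13.4 and 16.4 CPM with vehicle and 14.2, 12.3 and 13.7 CPM with YJ1206 (log2 fold change -0.35, SE 0.17, adjusted p = 0.186, edgeR). Tlr2, which encodes a receptor for bacterial lipoproteins, was at 4.51, 3.64 and 4.27 CPM and 2.46, 3.36 and 3.14 CPM (log2 fold change -0.46, SE 0.18, adjusted p = 0.103, edgeR). Tlr2 was the only member whose YJ1206 libraries all lay below its vehicle libraries. Cd14 was called lower without vehicle library 2 (-0.50, edgeR adjusted p = 0.0241).

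Among the Fc receptors and their adaptors, Fcgr1 and Fcer1g were called higher, and Fcgr3, Tyrobp and Fcgr2b were not called. Fcgr1 encodes the high-affinity receptor for IgG, and Fcer1g the common γ chain that carries its ITAM signaling motif. Fcgr1 (ENSMUSG00000015947.10, chr3:96282909-96293969, minus strand, GRCm38) was at 4.10, 3.79 and 3.62 CPM in vehicle and 5.41, 7.29 and 7.58 CPM in YJ1206 libraries (log2 fold change 0.82, SE 0.17, adjusted p = 0.0126, edgeR). Fcer1g was at 10.1, 7.05 and 8.92 CPM and 12.3, 16.7 and 12.3 CPM (log2 fold change 0.67, SE 0.18, adjusted p = 0.0321, edgeR). The groups did not overlap in either gene. Fcgr1 missed the threshold without vehicle library 3, YJ1206 library 2 or YJ1206 library 3 (edgeR adjusted p = 0.0501 to 0.0642), and Fcer1g without vehicle library 3 or any one YJ1206 library (edgeR adjusted p = 0.0541 to 0.101). Restricted to libraries 1 and 2, their log2 fold changes were 0.69 and 0.77 (edgeR adjusted p = 0.228 and 0.217).

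The inhibitory receptor gene Fcgr2b had the smallest change of this group, at 30.2, 26.8 and 26.8 CPM with vehicle and 28.7, 33.9 and 32.2 CPM with YJ1206 (log2 fold change 0.18, SE 0.10, adjusted p = 0.205, edgeR). Fcgr3, encoding a low-affinity activating receptor, changed by 0.38 on the log2 scale (SE 0.17, adjusted p = 0.152, edgeR) without overlap between groups, and was called without vehicle library 1 (0.55, edgeR adjusted p = 0.0472). Tyrobp, which encodes the adaptor DAP12 of TREM2, had a log2 fold change of 0.32 (SE 0.19, adjusted p = 0.251, edgeR). The estimated counts of Fcgr2b and Fcgr3, neighbours of similar sequence on chromosome 1, were not whole numbers in any tumor library, so that part of their reads was divided with other genes and both values are uncertain. Those of Fcgr2b were not whole in any cell library either, where Fcgr3 had 0 counts throughout. Which genes shared the reads is therefore not known.

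All 3 chains of complement C1q were called higher. C1q is the recognition unit of the classical complement pathway, and tissue macrophages are its main source. The genes lie next to each other on the minus strand of chromosome 4 (GRCm38), C1qb (ENSMUSG00000036905.8) at chr4:136880129-136886187, C1qc (ENSMUSG00000036896.5) at chr4:136889804-136893065 and C1qa (ENSMUSG00000036887.5) at chr4:136895917-136898803. C1qa was at 34.0, 30.5 and 29.1 CPM in vehicle libraries and 36.3, 56.5 and 50.9 CPM in YJ1206 libraries (log2 fold change 0.62, SE 0.16, adjusted p = 0.0278, edgeR). C1qb was at 27.0, 21.3 and 26.0 CPM and 34.6, 44.4 and 35.7 CPM (log2 fold change 0.63, SE 0.13, adjusted p = 0.0131, edgeR). C1qc was at 26.7, 22.2 and 26.0 CPM and 28.8, 39.1 and 36.4 CPM (log2 fold change 0.48, SE 0.13, adjusted p = 0.0341, edgeR). In all 3 genes YJ1206 library 1 was the lowest and library 2 the highest of the treated libraries, and the groups did not overlap. C1qb was called in every fit that left out 1 library, whereas C1qa and C1qc were not called without vehicle library 3, YJ1206 library 2 or YJ1206 library 3 (edgeR adjusted p = 0.0901 to 0.129). With libraries 1 and 2 only, the log2 fold changes of C1qa, C1qb and C1qc were 0.52, 0.71 and 0.47 (edgeR adjusted p = 0.302, 0.161 and 0.285).

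Of the lysosomal enzymes and apolipoprotein E, Lgmn and Apoe were called higher. Apoe, which encodes the lipid carrier that macrophages secrete (ENSMUSG00000002985.16, chr7:19696109-19699188, minus strand, GRCm38), was at 167, 155 and 159 CPM with vehicle and 222, 345 and 298 CPM with YJ1206 (log2 fold change 0.84, SE 0.15, adjusted p = 0.0068, edgeR). Lgmn, encoding the asparaginyl endopeptidase legumain (ENSMUSG00000021190.14, chr12:102394084-102439813, minus strand), was at 86.1, 87.2 and 82.7 CPM and 121, 132 and 126 CPM (log2 fold change 0.56, SE 0.058, adjusted p = 0.00143, edgeR). Neither gene overlapped between groups, and both were called whichever single library was left out. In the fit of libraries 1 and 2, the log2 fold changes were 0.81 for Apoe and 0.54 for Lgmn (edgeR adjusted p = 0.160 and 0.134).

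The other lysosomal genes were not called, and their fold changes had opposite signs. Lyz2, which encodes the lysozyme of macrophages and neutrophils, was at 192, 114 and 164 CPM with vehicle and 101, 132 and 122 CPM with YJ1206 (log2 fold change -0.40, SE 0.19, adjusted p = 0.152, edgeR). Vehicle library 2 lay within the YJ1206 range, and without it Lyz2 was called lower (-0.59, edgeR adjusted p = 0.00549). Ctss, encoding the protease cathepsin S of antigen-presenting cells, had a log2 fold change of 0.49 (SE 0.18, adjusted p = 0.0782, edgeR), and was called without vehicle library 2 (0.65, edgeR adjusted p = 0.0161) or without YJ1206 library 1 (0.63, edgeR adjusted p = 0.0459). The counts of Lyz2 were not whole in 5 of 6 tumor libraries, which leaves its share against a similar gene uncertain.

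**Figure D3:**
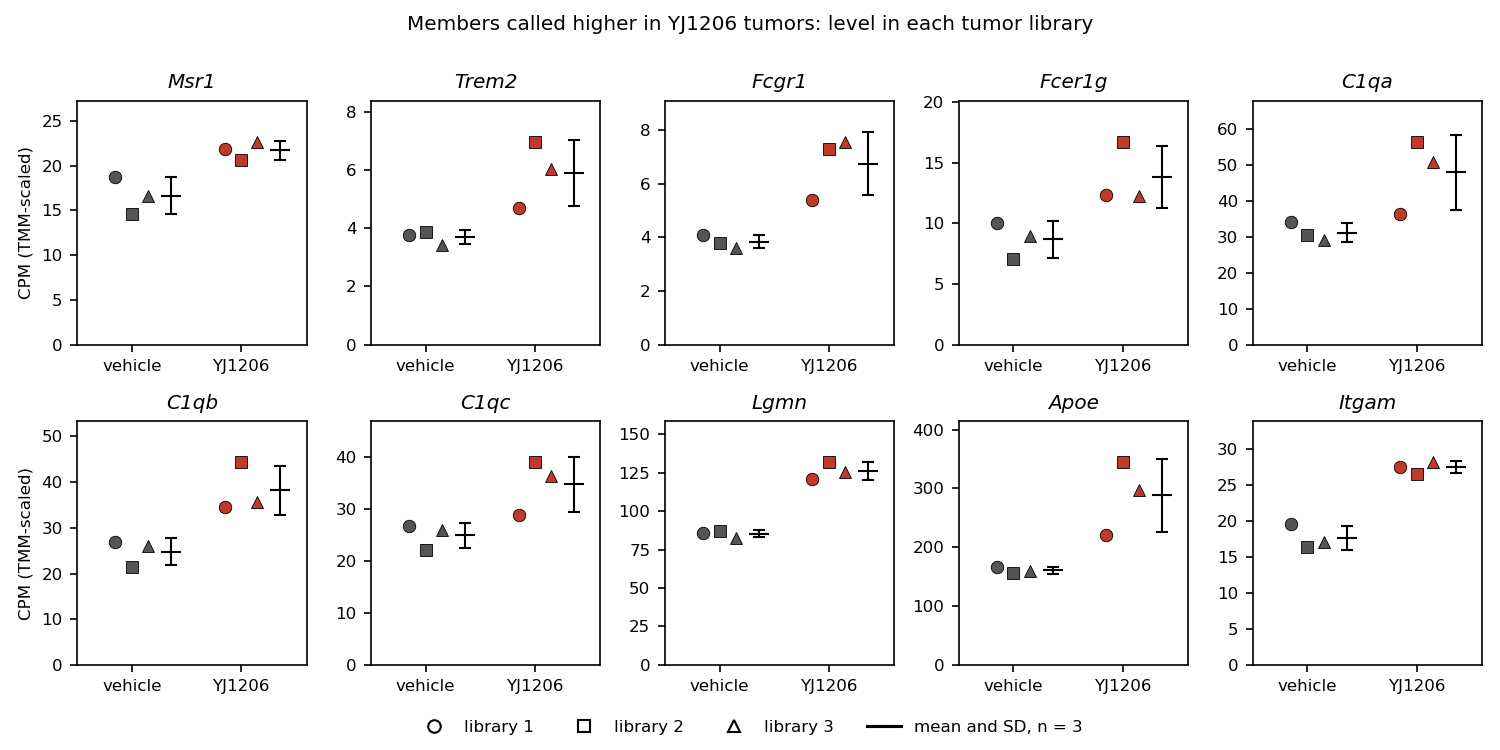
Level (CPM, TMM-scaled) of the 10 members called higher, in each vehicle (grey) and YJ1206 (red) tumor library, with mean and SD (n = 3) beside the points. In every panel the 3 YJ1206 libraries lie above the 3 vehicle libraries, and in 7 of the 10 library 1 is the lowest of the YJ1206 libraries.

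The chains of the integrin CD11b/CD18, which binds complement fragments and adhesion molecules, differed in their call. Itgam, the CD11b chain (ENSMUSG00000030786.18, chr7:128062640-128118491, plus strand, GRCm38), was at 19.5, 16.4 and 17.1 CPM in vehicle libraries and 27.5, 26.5 and 28.2 CPM in YJ1206 libraries (log2 fold change 0.63, SE 0.094, adjusted p = 0.00399, edgeR). The groups did not overlap, and the call stood whichever single library was left out. From libraries 1 and 2 alone, the log2 fold change was 0.59 (edgeR adjusted p = 0.154). Itgb2, the CD18 chain shared by the leukocyte integrins, was at 14.1, 10.8 and 12.3 CPM and 11.2, 13.8 and 11.9 CPM (log2 fold change -0.0035, SE 0.14, adjusted p = 0.99, edgeR). The difference between the chains was not tested. The counts of Itgam were not whole in any tumor library, so that part of its reads was shared with another gene.

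Cd163, Csf1r and Rac2 likewise had counts that were not whole in any tumor library, while 30 of the 37 members had whole counts (within 0.01) in every one.

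The promoters of called members were read for the core that PU.1 binds, GAGGAA on either strand, since PU.1 drives many macrophage genes. RefSeq entries (GRCm38.p6, 250 bases before to 50 after the annotated start) were matched for 27 of the 37 members. The 6 called members with the smallest adjusted p that had an entry were Lgmn, Itgam, Apoe, Fcgr1, C1qb and Trem2, and 5 of them held GAGGAA, all but Lgmn. Of all 32851 promoters of this length, 28.3% held GAGGAA and 3.20% the longer form GAGGAAGT, which none of the 6 held. Over the 27 matched members, 16 held the short form and 4 the long one. A match is a description of the letters only. The entries with a match are shown 5′ to 3′ on the strand of the gene, with GAGGAA or its reverse complement in capitals: Itgam (chr7:128062390-128062689, plus), Apoe (chr7:19699139-19699438, minus), Fcgr1 (chr3:96293920-96294219, minus), C1qb (chr4:136886151-136886450, minus) and Trem2 (chr17:48346151-48346450, plus).
Itgam: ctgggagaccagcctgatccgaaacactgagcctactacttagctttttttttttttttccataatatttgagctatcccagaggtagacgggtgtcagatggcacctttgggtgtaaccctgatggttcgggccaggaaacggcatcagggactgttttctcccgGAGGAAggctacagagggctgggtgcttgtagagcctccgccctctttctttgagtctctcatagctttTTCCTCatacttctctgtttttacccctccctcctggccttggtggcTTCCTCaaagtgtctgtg
Apoe: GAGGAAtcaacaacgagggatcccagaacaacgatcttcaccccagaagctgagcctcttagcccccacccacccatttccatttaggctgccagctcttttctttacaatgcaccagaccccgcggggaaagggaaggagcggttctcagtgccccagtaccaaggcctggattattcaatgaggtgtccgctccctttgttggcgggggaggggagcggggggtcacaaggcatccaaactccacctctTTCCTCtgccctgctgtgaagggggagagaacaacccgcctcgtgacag
Fcgr1: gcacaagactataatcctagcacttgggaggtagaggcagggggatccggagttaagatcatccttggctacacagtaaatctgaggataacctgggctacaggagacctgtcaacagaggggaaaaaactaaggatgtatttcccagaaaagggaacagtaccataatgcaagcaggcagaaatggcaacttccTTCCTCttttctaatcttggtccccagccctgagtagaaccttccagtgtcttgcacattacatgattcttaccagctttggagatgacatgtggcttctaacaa
C1qb: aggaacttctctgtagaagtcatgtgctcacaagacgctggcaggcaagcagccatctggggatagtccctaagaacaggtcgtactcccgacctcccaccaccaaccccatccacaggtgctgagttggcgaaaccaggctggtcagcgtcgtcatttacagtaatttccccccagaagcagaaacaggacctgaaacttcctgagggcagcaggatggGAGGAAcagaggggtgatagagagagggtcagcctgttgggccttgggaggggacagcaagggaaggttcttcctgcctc
Trem2: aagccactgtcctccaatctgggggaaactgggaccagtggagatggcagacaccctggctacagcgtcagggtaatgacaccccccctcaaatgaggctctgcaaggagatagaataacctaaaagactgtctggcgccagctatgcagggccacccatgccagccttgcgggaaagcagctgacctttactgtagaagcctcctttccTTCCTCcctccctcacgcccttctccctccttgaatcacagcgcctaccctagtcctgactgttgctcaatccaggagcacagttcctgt

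In Itgam the matches began 84 and 15 bases before the start and 32 after it. Those of C1qb, Trem2 and Fcgr1 began 30, 40 and 55 bases before it, and those of Apoe 250 bases before it and 1 base after it.

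None of the 12 pan-leukocyte genes was called in tumors by edgeR or DESeq2, and 5 were higher at an unadjusted p under 0.05 in edgeR. Ptprc, which encodes CD45, the phosphatase found on all nucleated blood cells, was at 13.3, 13.4 and 13.9 CPM with vehicle and 11.1, 19.2 and 17.7 CPM with YJ1206 (log2 fold change 0.24, SE 0.19, adjusted p = 0.393, edgeR). YJ1206 library 1 was below every vehicle library and libraries 2 and 3 were above, and without it the log2 fold change was 0.45 (edgeR adjusted p = 0.0286). Cd52, encoding a small surface glycoprotein of lymphocytes and monocytes, had the largest positive fold change of all members, at 14.9, 59.1 and 32.2 CPM and 69.8, 73.9 and 73.9 CPM (log2 fold change 1.03, SE 0.41, adjusted p = 0.107, edgeR). Its treated libraries agreed closely and its vehicle libraries spread widely, and without vehicle library 2 it was called (1.65, edgeR adjusted p = 0.00252). Cd37, a tetraspanin gene best known in B cells, had the smallest change of the membrane proteins, at 2.43, 1.84 and 2.26 CPM and 1.20, 2.82 and 2.58 CPM (log2 fold change 0.029, SE 0.32, adjusted p = 0.959, edgeR).

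The log2 fold changes of the remaining membrane proteins were 0.46 for Cd48, 0.36 for the tetraspanin gene Cd53 and 0.10 for Laptm5, a lysosomal membrane protein of blood cells (edgeR adjusted p = 0.301, 0.0506 and 0.753). Cd53 did not overlap between groups and was called without vehicle library 1 (0.42, edgeR adjusted p = 0.0425). The direction for Cd37 and Laptm5 turned with the choice of library, to -0.20 and -0.071 without YJ1206 library 2.

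In the group of cytoskeleton, GTPase and oxidase genes, Coro1a had the largest and Aif1 the smallest fold change. Coro1a, encoding the actin-binding coronin of leukocytes, was at 6.94, 7.35 and 7.43 CPM with vehicle and 7.75, 12.3 and 9.12 CPM with YJ1206 (log2 fold change 0.43, SE 0.18, adjusted p = 0.118, edgeR). Aif1, which encodes the macrophage protein IBA1, was at 2.30, 2.14 and 2.26 CPM and 1.53, 2.06 and 2.42 CPM (log2 fold change -0.15, SE 0.22, adjusted p = 0.653, edgeR). The log2 fold changes were 0.42 for the NADPH oxidase gene Cybb, 0.38 for the GTPase gene Rac2, 0.29 for the actin-bundling gene Lcp1 and 0.067 for Arhgdib, an inhibitor of small GTPases (edgeR adjusted p = 0.0854, 0.0577, 0.167 and 0.567). Coro1a, Cybb and Rac2 did not overlap between groups. Rac2 was called without YJ1206 library 2 (0.47, edgeR adjusted p = 0.0454).

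As a description chosen after the values were seen, each member was set against Ptprc of the same library, and the result differed with the scale. In counts, whose ratio takes no account of gene length and is compared here only between libraries, Apoe stood at 12.6, 11.6 and 11.5 counts per Ptprc count in vehicle libraries and at 20.0, 18.02 and 16.8 in YJ1206 libraries. C1qa stood at 2.56, 2.28 and 2.09 counts per Ptprc count and at 3.27, 2.95 and 2.88. Of the 36 members other than Ptprc, 6 had a count ratio that was higher in every YJ1206 library than in every vehicle library (Apoe, C1qa, C1qc, Fcgr1, Lgmn and Trem2), where 4.42% of 15557 genes did, and 2 had a lower one (Tlr2 and Aif1), where 13.7% did. On the TPM scale, Ptprc was at 5.41, 7.45 and 8.83 in vehicle libraries, which were near-equal in CPM, and at 5.80, 9.45 and 8.95 in YJ1206 libraries. The TPM ratio was then 52.5, 32.6 and 29.7 against 59.6, 55.0 and 51.5 for Apoe and 12.1, 7.57 and 6.30 against 11.4, 10.6 and 10.3 for C1qa, with vehicle library 1 above at least 1 treated library in both genes. In TPM no member's ratio was higher in every YJ1206 library (3.31% of 15557 genes), and that of Tlr2 was lower in every one (9.24%).

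The cultures showed which members the cancer cells expressed themselves. In DMSO-treated Myc-CaP cells, 18 of the 37 members had 0 counts in all 3 libraries, among them Ptprc, Spi1, Adgre1, Mrc1, Msr1, Trem2, Tyrobp, Ctss and the C1q chains, and 25 had 3 counts or fewer in every library. A count of 0 allows a level of up to 0.151 to 0.155 CPM, for counting error only. A member was taken to be low in cells when its mean TPM in DMSO cells was under 10% of that in vehicle tumors, and 32 were. The tables were normalized separately, so this share is a description. Of these 32 members, 8 were called higher in tumors, where 11.9% of all genes tested were. The median log2 fold change over all 32 was 0.38.

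The 5 members at 10% or more were Csf1 (91.4%), Cd14 (57.8%), Arhgdib (52.3%), Lgmn (16.0%) and Apoe (10.4%). Lgmn and Apoe were thus the called members that the cultured cells also carried. Apoe was close to the threshold, at 8.53% when the share was taken from CPM. Just under the threshold lay Itgb2 (9.51%), Cd68 (6.67%) and Rac2 (5.66%).

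**Figure D4:**
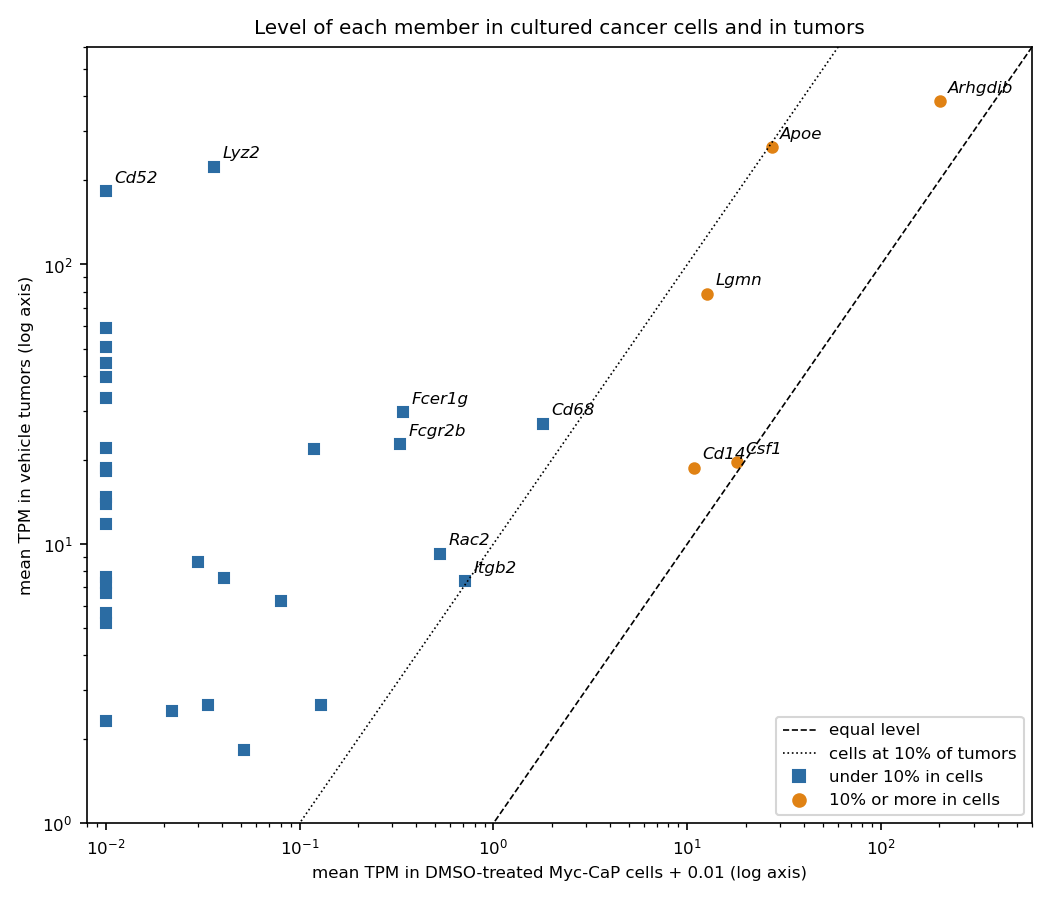
Mean TPM of each member in vehicle tumors (vertical, log axis) against its mean TPM in DMSO-treated Myc-CaP cells plus 0.01 (horizontal, log axis), n = 3 libraries each. The 32 blue squares lie left of the dotted line at 10% of the tumor level, with 18 of them at 0 TPM in cells, and the 5 orange circles lie at or right of it.

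In the cultures, 7 members passed the filter and could be tested between YJ1206 and DMSO. Cd68, Lgmn and Arhgdib were called higher and Csf1 and Apoe lower, against 37.8% of 11826 genes called higher and 38.3% lower. Csf1 was at 34.4, 34.7 and 34.7 CPM in DMSO libraries and 14.8, 14.4 and 15.9 CPM in YJ1206 libraries (log2 fold change -1.20, SE 0.074, adjusted p = 3.26e-14, edgeR). Apoe was at 10.4, 14.1 and 13.8 CPM and 4.65, 5.58 and 4.46 CPM (log2 fold change -1.38, SE 0.14, adjusted p = 1.13e-09, edgeR). In both genes every treated library lay below every DMSO library.

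Lgmn was at 11.9, 13.0 and 14.3 CPM with DMSO and 38.9, 43.4 and 40.2 CPM with YJ1206 (log2 fold change 1.64, SE 0.079, adjusted p = 1.35e-16, edgeR). Cd68 was low, at 0.616, 1.24 and 1.21 CPM and 4.22, 3.25 and 5.38 CPM (log2 fold change 2.06, SE 0.28, adjusted p = 2.35e-07, edgeR). The groups did not overlap in either gene. Arhgdib was at 97.4, 99.5 and 100.3 CPM and 106, 105 and 105 CPM (log2 fold change 0.092, SE 0.038, adjusted p = 0.0287, edgeR), and this small change turned to -0.094, called lower (edgeR adjusted p = 0.0258), when libraries were scaled by total counts, a scaling that moved the median of all genes from -0.017 to -0.20. Leaving out any 1 library other than YJ1206 library 2 also ended its call, with log2 fold changes of 0.077 to 0.098 (edgeR adjusted p = 0.0501 to 0.0947). Cd14 (10.003, 9.61 and 7.96 CPM and 9.45, 8.83 and 9.46 CPM) and Rac2 (0.769, 0.723 and 1.21 CPM and 0.644, 0.528 and 0.308 CPM) were not called, with log2 fold changes of 0.0097 (SE 0.12) and -0.85 (SE 0.44) and edgeR adjusted p = 0.945 and 0.0807.

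The effect of YJ1206 on these 7 members was compared between tumors and cells by an interaction term over all 12 libraries, where 46.8% of 15328 genes were called. Of the 7, 5 were called. Apoe, higher in tumors and lower in cells, differed by 2.19 on the log2 scale (SE 0.25, adjusted p = 1.02e-05, edgeR; tumors minus cells). For Csf1, which fell in cells and was not called in tumors, the difference was 1.53 (SE 0.25, adjusted p = 0.000219, edgeR). Lgmn and Cd68 had the smaller fold change in tumors, by -1.11 (SE 0.099, adjusted p = 1.10e-06, edgeR) and -1.68 (SE 0.37, adjusted p = 0.00224, edgeR). Rac2 differed by 1.20 (SE 0.36, adjusted p = 0.0144, edgeR), and this call was lost with libraries 1 and 2 only (0.67, edgeR adjusted p = 0.263). Cd14 and Arhgdib were not called (-0.39 and -0.055, edgeR adjusted p = 0.186 and 0.663). Dose, route and duration of the drug differed between tumors and cells, and the spread was estimated jointly for both materials. The cultures held Myc-CaP cells only, whereas the tumors were a mixture. Of the vehicle tumor level, DMSO cells held 91.4% for Csf1, 16.0% for Lgmn, 10.4% for Apoe, 6.67% for Cd68 and 5.66% for Rac2. The term thus does not compare the same cells, and which cells changed in tumors was not tested.

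**Figure D5:**
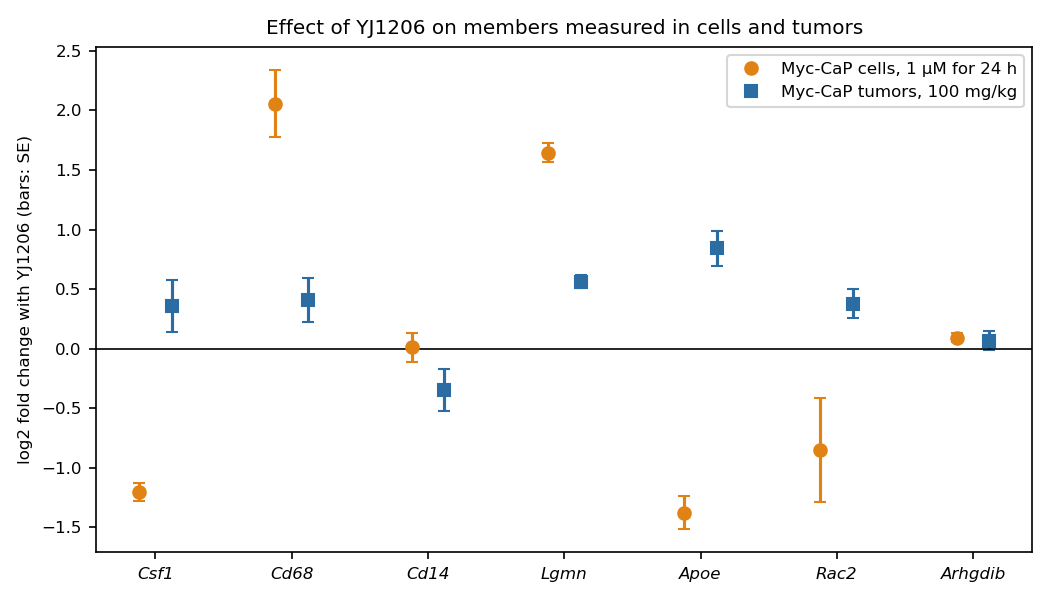
Log2 fold change with YJ1206 in Myc-CaP cells (orange circles) and in Myc-CaP tumors (blue squares) for the 7 members tested in both, with bars for the standard error of each edgeR fit (n = 3 libraries per group). Apoe, Csf1 and Rac2 lie below 0 in cells and above 0 in tumors.

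Other macrophage and myeloid genes, a separate list of 75 also chosen with earlier results known, had calls in both directions. Of the 71 that could be tested in tumors, 18 were higher (25.4%, against 11.9% of all genes), 3 were lower (4.23%, against 14.9%) and 50 were not called, with a median log2 fold change of 0.24. Leaving out 1 library gave 10 (without vehicle library 3) to 21 (without vehicle library 1) higher and 1 (without YJ1206 library 3) to 9 (without vehicle library 2) lower, and libraries 1 and 2 only gave none in either direction. Over all genes, leaving out 1 library gave 760 to 2648 higher and 1111 to 3076 lower. Grn and Ctsd, among the 3 highest called genes with at least 5 CPM, encode proteins of the lysosome. Grn, encoding progranulin, was at 326, 516 and 407 CPM and 894, 989 and 959 CPM (log2 fold change 1.19, SE 0.15, adjusted p = 0.00263, edgeR). Ctsd, encoding cathepsin D, was at 530.4, 662 and 583 CPM and 1220.0, 1274 and 1290.3 CPM (log2 fold change 1.09, SE 0.085, adjusted p = 0.00075, edgeR).

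Both genes were also expressed by the cultured cells, at 102 ± 2.26 and 159 ± 6.49 CPM with DMSO (SD, n = 3), and both were higher with YJ1206 there, by 0.94 and 0.92 on the log2 scale (edgeR adjusted p = 1.14e-18 and 1.45e-18). Of the 18 higher genes, 7 were under 10% of the vehicle tumor level in DMSO cells and 11 were not. The 3 lower genes were Axl, a receptor for apoptotic cells (log2 fold change -0.93, SE 0.067, adjusted p = 0.000629, edgeR), Spp1, encoding osteopontin (-0.58, SE 0.17, adjusted p = 0.0463, edgeR), and Cebpa, encoding a myeloid and epithelial transcription factor (-0.46, SE 0.089, adjusted p = 0.00961, edgeR). The call of Spp1 was lost without vehicle library 1 or 3 or YJ1206 library 2 or 3 (edgeR adjusted p = 0.0966 to 0.15), and that of Cebpa without YJ1206 library 3 (adjusted p = 0.0524, edgeR). All 3 were also expressed by DMSO cells, at a mean of 186 (Axl), 185 (Spp1) and 52.7 TPM (Cebpa). Their means in vehicle tumors were 55.4, 336 and 71.3 TPM, respectively, and which cells carried the change in tumors was not tested. In cells, Spp1 was higher (2.33, edgeR adjusted p = 8.29e-29), while Axl and Cebpa were lower (-1.29 and -0.14, edgeR adjusted p = 7.59e-24 and 0.0161).

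Marker lists of other leukocytes were thinly expressed. In tumors, 1 of 7 tested T cell genes was higher, Cd8a (log2 fold change 0.74, SE 0.18, adjusted p = 0.021, edgeR), 1 of 5 neutrophil genes was lower, S100a9 (-1.21, SE 0.36, adjusted p = 0.0437, edgeR), and none of 4 dendritic cell genes, of 1 NK gene or of 1 B cell gene was called by edgeR or DESeq2 (1 dendritic cell gene was higher at an unadjusted p under 0.05). The 10 neutrophil genes summed to 22.8 to 29.9 TPM in vehicle and 12.7 to 18.3 TPM in YJ1206 libraries. The part of neutrophils in the values of the members, which changed in both directions, was not tested. The call of Cd8a was lost without vehicle library 3 or any 1 of the YJ1206 libraries (edgeR adjusted p = 0.0517 to 0.0846), and that of S100a9 was lost without any 1 library other than vehicle library 2 (edgeR adjusted p = 0.088 to 0.147). Of the endothelial, epithelial and adipocyte genes tested, 1 of 8, 2 of 5 and 1 of 2 were higher in edgeR and none was lower. Over all genes tested, 11.9% were called higher and 14.9% lower, and lists this short cannot be set apart from those shares.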

How the data were processed

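The described protocol depleted ribosomal RNA before sequencing, whereas the labels name polyA RNA for cells and total RNA for tumors. The authors deposited estimated counts per gene, with no scaling between libraries, and TPM values, in which gene length is taken out and each library sums to 1000000. The submitters' processing notes name kallisto and GRCm38 (mm10); the annotation is not given in the sources used here. All 37 versioned gene IDs were found in GENCODE vM21 (GRCm38), from which coordinates were taken.

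Estimated counts were rounded, since the test had been chosen for counts. Tumors (6 libraries) and cells (6 libraries) were fitted apart by edgeR 4.0.16 (R 4.3.3) after filterByExpr and TMM scaling, using glmQLFit and glmQLFTest, with Benjamini-Hochberg adjustment over all genes tested and a threshold of 0.05. Alternatives were DESeq2 1.42.0, total-count and upper-quartile scaling, no filter, limma 3.58.1 on log2(TPM + 1) and log2(TPM + 0.1), libraries 1 and 2 only, each library left out in turn and a replicate block. The comparison of tumors with cells used an interaction term, and the share in cells used mean TPM with a threshold of 10%. Within each group, library 3 was compared with libraries 1 and 2 over genes that differed by more than 5 Poisson standard errors between the latter. The edgeR fits of treated against control libraries were tested on simulated counts, drawn independently for each library. The other steps were not tested in this way. Counting limits (3 counts) cover counting error only, since reads carried no molecular identifiers.

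The members and lists were chosen with earlier results of these data known. Genes named with values are all called members, a set list of general markers, the largest and smallest change in each role group, and from other myeloid genes the 3 highest and 3 lowest called with at least 5 CPM on average, of which 1 is not reported here. Promoters are those of up to 6 called members with the smallest adjusted p, outside chromosome 18. Ratios to Ptprc, in counts and in TPM, were added after the values were seen.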

Additional observations from a re-analysis of the deposited data

Results flagged for a closer look

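The effect of YJ1206 differed between tumors and cultured cells in 5 of the 7 members tested in both, by the edgeR interaction term. Over all genes, 46.8% of 15328 were called by this term. Differences are given as the log2 fold change in tumors minus that in cells. Because the cultures held Myc-CaP cells only and the tumors a mixture, the term does not compare the same cells. The difference was 2.19 for Apoe (adjusted p = 1.02e-05, edgeR), which was higher in tumors (0.84) and lower in cells (-1.38). It was 1.53 for Csf1 (adjusted p = 0.000219, edgeR), with 0.36 in tumors, not called, and -1.20 in cells. It was -1.11 for Lgmn (adjusted p = 1.10e-06, edgeR) and -1.68 for Cd68 (adjusted p = 0.00224, edgeR), both with positive fold changes in both materials. It was 1.20 for Rac2 (adjusted p = 0.0144, edgeR), whose level in cells was at most 1.21 CPM and whose change was called in neither material alone. The first 4 differences were also called with libraries 1 and 2 only and with total-count scaling, and that of Rac2 was not called with libraries 1 and 2 only.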

How the results depend on the processing

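Of 518 values for single members in tumors under 14 alternatives, 429 kept their direction and side of the threshold, 44 lost the call, 21 gained it and 24 changed sign. With libraries 1 and 2 only, the count of members higher in tumors went from 10 to 0 and that lower stayed at 0. The count of higher members was 7 with the replicate block, which changed no count of calls by over 1.5 times. Same-numbered libraries did not deviate together (correlations -0.029 to 0.011). No pairing by number was thus seen, though these values cannot exclude one. Leaving out single libraries gave 4 to 12 members higher and 0 to 3 lower in tumors, and 2 to 3 higher and 2 to 4 lower in cells. Over all genes in tumors, such fits called 760 to 2648 higher and 1111 to 3076 lower. Members lower in cells went from 2 to 4 with total counts, and to 5 with log2(TPM + 1) and 5 with log2(TPM + 0.1). The share threshold gave 29 members low in cells at 5%, 34 at 20% and 33 from CPM, against 32.

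In tumors, the values that changed sign were not called; in cells, 11 of 98 did, among them those of Arhgdib, which was called. Itgb2 was 0.065 with upper-quartile factors, 0.013 with libraries 1 and 2 only, and 0.10, 0.056 and 0.017 without vehicle library 1, YJ1206 library 1 or YJ1206 library 3. With log2(TPM + 1) and log2(TPM + 0.1), Laptm5 was -0.081 and -0.085, Cd37 -0.19 and -0.26, and Arhgdib -0.016 in both. Cd37 was -0.074 with libraries 1 and 2 only, -0.026 with the replicate block, -0.20 without YJ1206 library 2 and -0.10 without YJ1206 library 3. Without vehicle library 2, Csf1r was -0.068, Mrc1 -0.24, Laptm5 -0.038, Cd37 -0.084 and Arhgdib -0.0099. Without YJ1206 library 2, Csf1r was -0.12, Mrc1 -0.015 and Laptm5 -0.071. Aif1 was 0.0029 without YJ1206 library 1. Over the fits that left out 1 library, the highest values were 0.31 for Csf1r, 0.41 for Mrc1, 0.29 for Laptm5, 0.31 for Cd37 and 0.12 for Arhgdib, and the lowest for Aif1 was -0.31. In cells, Cd14 was -0.18 with total counts, -0.057 with upper-quartile factors, -0.0053 without a filter, -0.27 and -0.30 with the TPM fits, -0.10 with libraries 1 and 2 only, and from -0.089 (without DMSO library 3) to 0.072 (without DMSO library 1), with -0.0016 without YJ1206 library 3. Arhgdib in cells, 0.092 as reported, was -0.094 with total counts and -0.19 with both TPM fits, kept its call in 1 of 6 fits that left out a library, and its interaction was 0.16 with total counts. The cause of these changes was not tested. At this depth, 7 of the 37 members had enough counts for a test in cells.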
